A study of Homo sapiens with 6 samples.

Results

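DHRS2, 6 further short-chain dehydrogenases and 3 proteins that carry or sense retinoic acid were examined in NCI-N87 gastric cancer cells with and without SCAMP1 knockdown. The 10 protein-coding genes (DHRS2, DHRS3, DHRS4, DHRS7, DHRS9, RDH10, RDH11, CRABP2, RARA and RARG) were taken by symbol out of 58735 genes, 19951 of them protein-coding. They were chosen on measured values of this same contrast, in which DHRS2 is among the genes with the largest decreases, so their levels and differences are given as a description without a test.

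NCI-N87 is an established human gastric carcinoma line, and the question was which genes change their expression when SCAMP1, a membrane protein of secretory and endocytic vesicles, is depleted. The control group, shNC (named shCtrl in the series text), was infected with lentivirus carrying the empty vector, and the shScamp1 group with lentivirus carrying 1 shRNA against SCAMP1 (shS1#1). Both groups received polybrene and were selected with puromycin at 2 μg/ml to give stable populations, and total RNA was taken before full confluence. Each group had 3 libraries labelled as biological replicates. Nothing says that they came from separate infections, so p-values measure only the spread between these libraries, and with 1 shRNA the loss of SCAMP1 and off-target effects cannot be told apart.

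The libraries held between 14311769 and 15988700 reads on genes. SCAMP1 itself stood at 12.6, 12.1 and 11.5 FPKM (fragments per kilobase of gene, divided by a library scaling that the sources used here do not state and that is not the total of reads on genes) in shNC and at 1.70, 1.37 and 1.99 in shScamp1, a log2 fold change of -2.78 (SE 0.14, limma adjusted p = 0.000248). Of 10 gastric epithelial markers 7 were expressed above the filter (EPCAM, KRT8, KRT18, KRT19, CDH1, MUC1 and ERBB2), 4 of these (the 3 keratins and CDH1) were higher in shScamp1 by adjusted p, CLDN18 had 0 to 1 reads and TFF1 had 0. MUC5AC, also below the filter, had 22 to 27 reads in shNC and 131 to 197 in shScamp1, without overlap. Markers of other cell types were at or near 0 (PTPRC 0 to 4 reads, PECAM1 0 to 1, COL1A2 and DCN 0, CHGA 1 to 7), apart from COL1A1 with 64 to 111. The library of shScamp1 replicate 2 stood apart, with 9.21% of its reads on mitochondrial genes against 6.09% to 6.78% in the other 5 libraries. Within its group it had the lowest DHRS2, DHRS7, RDH10, CRABP2 and RARA and the highest DHRS3. Log2 differences without this library are given below for the members fitted and for the named genes that lean on it, and its part in the results was not tested beyond that. In bulk RNA, fewer cells expressing a gene and less RNA per cell cannot be told apart.

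Retinol enters cells as vitamin A alcohol, is oxidised reversibly to retinal by retinol dehydrogenases of the short-chain dehydrogenase/reductase family, and is then oxidised irreversibly to retinoic acid by retinaldehyde dehydrogenases of the ALDH1A group. CRABP2 carries retinoic acid to the nucleus, where the receptors RARA, RARB and RARG bind DNA as partners of the RXR receptors. Members of the short-chain family that prefer NADPH run the first step backwards, from retinal to retinol, and thereby keep retinal from becoming retinoic acid. In the stomach and other epithelia this pathway is known for its part in differentiation.

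Among the 9 members above the expression filter, DHRS2 and DHRS3 had the largest difference in each direction, so the 250 bases before an annotated start of each are shown. RefSeq (GRCh38.p14) gave such windows for 8 of the 10 genes, and none was matched for RDH10 and DHRS7. Each window was searched on both strands for 6 short motifs. These were TATAAA as core promoter box, CCAAT as the box bound by nuclear factor Y, GGGCGG as the box bound by Sp1, CACGTG as E-box, AGGTCA as the half-site of retinoic acid receptors and AGTTCA as its common variant. Capitals mark the letters found. The DHRS2 window is chr14:23629865-23630114 on the plus strand and ends at the base before the annotated gene start. The DHRS3 window is chr1:12618211-12618460 on the minus strand and is 479 bases away from the start of the principal transcript.
DHRS2: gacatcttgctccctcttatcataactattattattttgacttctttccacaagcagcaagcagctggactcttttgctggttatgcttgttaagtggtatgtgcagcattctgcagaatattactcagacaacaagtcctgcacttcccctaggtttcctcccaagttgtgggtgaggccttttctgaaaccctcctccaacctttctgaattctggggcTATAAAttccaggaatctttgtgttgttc
DHRS3: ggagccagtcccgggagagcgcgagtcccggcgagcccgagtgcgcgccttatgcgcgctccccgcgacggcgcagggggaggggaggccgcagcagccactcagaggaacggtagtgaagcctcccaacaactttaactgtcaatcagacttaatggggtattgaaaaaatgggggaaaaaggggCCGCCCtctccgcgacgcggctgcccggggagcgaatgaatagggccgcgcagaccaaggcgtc
The DHRS2 window was 43.2% G and C and held the core promoter box TATAAA at bases 29 to 24 before the start, a motif present in 10.7% of 35116 windows of the same length. The DHRS3 window was 65.2% G and C and held 1 Sp1 box on the opposite strand, at bases 64 to 59 before the start, a motif present in 42.6% of all windows. The half-site AGGTCA was found in neither printed window. It was present in 1 of the other DHRS3 windows (chr1:12596614-12596863), in 1 of 3 RARA windows and in 12.1% of all windows. These matches describe letters and show no binding.

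DHRS2 (ENSG00000100867, chr14:23630115-23645639, plus strand, GRCh38) encodes a short-chain reductase that acts on dicarbonyl compounds and whose main natural substrate is not settled. It was measured at 8.37, 8.68 and 9.47 FPKM in shNC and at 2.27, 1.89 and 2.48 FPKM in shScamp1. Every shScamp1 library lay below every shNC library, with no overlap. The means were 8.84 ± 0.564 (SD, n = 3) and 2.21 ± 0.301 (SD, n = 3), a level 75.0% lower, or 4.0-fold. On the log2(FPKM + 0.1) scale the difference was -1.96 (SE 0.12). It rested on 1003 to 1105 reads per library in shNC and 195 to 274 in shScamp1. None of the 1656 stretches of 50 bases in its longest coding transcript occurred in a transcript of another gene. The rest of the 7556 bases over which its reads were counted was not searched. Leaving out shScamp1 replicate 2 gave -1.85.

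The reductases that turn retinal back into retinol differed in direction among themselves. DHRS3 (ENSG00000162496, chr1:12567910-12617731, minus strand), the main cellular retinal reductase and known as a gene that retinoic acid itself induces, stood at 11.4, 10.8 and 11.1 FPKM in shNC and at 19.3, 23.2 and 18.3 in shScamp1. The groups did not overlap, and no other member fitted had a larger difference upwards. Its mean was 11.1 ± 0.297 (SD, n = 3) in shNC and 20.3 ± 2.58 (SD, n = 3) in shScamp1, a ratio of 1.82 and a log2 difference of 0.85 (SE 0.10), or 0.75 without shScamp1 replicate 2.

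RDH11 (ENSG00000072042, chr14:67676801-67695814, minus strand), an NADPH-dependent retinal reductase of the endoplasmic reticulum, was close to level. Its FPKM values were 12.0, 11.6 and 11.6 in shNC and 11.1, 10.9 and 10.5 in shScamp1. The shScamp1 libraries were all slightly lower without overlap, by -0.11 (SE 0.06) on the log2 scale, or -0.12 without shScamp1 replicate 2. Of its 50-base stretches 11.8% also occur elsewhere, nearly all in AL049779.1, which had 0 to 2 reads. DHRS4 (ENSG00000157326, chr14:23953586-23969279, plus strand), a peroxisomal reductase of retinal and other carbonyls, was measured at 3.61, 3.41 and 3.59 FPKM in shNC and at 2.91, 2.66 and 2.61 in shScamp1. Here too the groups did not overlap, with shScamp1 22.9% lower and a log2 difference of -0.37 (SE 0.08), or -0.35 without shScamp1 replicate 2, on 84 to 132 reads per library. The DHRS4 value is uncertain, because 68.4% of the 50-base stretches in its longest coding transcript also occur in transcripts of DHRS4L2, DHRS4-AS1 or AL136419.1. The copy DHRS4L2 next to it was at 3.16 ± 0.162 and 2.36 ± 0.268 FPKM (SD, n = 3 each; log2 -0.41, limma adjusted p = 0.0513), the antisense gene DHRS4-AS1 at 1.01 ± 0.0515 and 1.09 ± 0.127 (log2 0.11, adjusted p = 0.685), and DHRS4L1 had 0 reads in all libraries. DHRS7 (ENSG00000100612, chr14:60144120-60169856, minus strand), a membrane-bound reductase of steroids and retinal, stood at 22.9, 21.9 and 23.8 FPKM in shNC and at 19.1, 17.7 and 19.0 in shScamp1. Its groups did not overlap, and the mean was 18.6% lower (log2 -0.30, SE 0.07), or -0.26 on the log2 scale without shScamp1 replicate 2. The gene PCNX4 on the opposite strand covers 37.2% of the DHRS7 stretches, and the counting is not stated to use strand. PCNX4 differed by -0.12 on the log2 scale (limma adjusted p = 0.548).

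RDH10 and DHRS9 are the members that oxidise retinol. RDH10 (ENSG00000121039, chr8:73294612-73325281, plus strand), the principal retinol dehydrogenase of embryonic tissues and a binding partner of DHRS3, stood at 22.1, 23.1 and 22.5 FPKM in shNC and at 27.8, 23.7 and 28.1 in shScamp1. The groups did not overlap, but shScamp1 replicate 2 lay just above the highest shNC library. The log2 difference was 0.23 (SE 0.09) and 0.31 without that library. DHRS9 (ENSG00000073737, chr2:169064789-169096167, plus strand), an oxidoreductase of retinol and hydroxysteroids, was the lowest of the 10 genes, at 0.32, 0.16 and 0.31 FPKM in shNC and 0.529, 0.545 and 0.747 in shScamp1. All shScamp1 libraries were above all shNC libraries, on 28 to 41 reads against 10 to 19. Its mean over the 6 libraries was under the filter of 0.5 FPKM, so it was not fitted, and the ratio of the means, 2.31, rests on few reads.

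CRABP2 (ENSG00000143320, chr1:156699606-156705816, minus strand), the retinoic acid carrier, was the most abundant of the 10 by the deposited lengths, ranking 602 among protein-coding genes by mean FPKM. It was measured at 53.9, 54.7 and 56.8 FPKM in shNC and at 63.9, 43.7 and 60.5 in shScamp1. The groups overlapped, and the low value came from shScamp1 replicate 2. The log2 difference was 0.004 (SE 0.148), or 0.17 without that library, and its sign changed in 5 of 15 alternative fits. RARA (ENSG00000131759, chr17:40309192-40357643, plus strand) encodes the broadly expressed retinoic acid receptor alpha and was measured at 13.1, 14.1 and 14.1 FPKM in shNC and 12.3, 10.5 and 11.4 in shScamp1. All shScamp1 libraries lay below the shNC libraries, by -0.27 (SE 0.08) on the log2 scale and by -0.22 without replicate 2. RARG (ENSG00000172819, chr12:53210567-53232980, minus strand), the receptor typical of epithelia, stood at 33.1, 34.4 and 35.8 FPKM against 33.8, 32.7 and 32.6, and its groups overlapped (log2 -0.06, SE 0.06, and -0.05 without replicate 2). The ratio of RARG to RARA was 2.5 ± 0.051 in shNC and 2.91 ± 0.177 in shScamp1 (SD, n = 3 each) by the deposited gene lengths.

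**Figure D1:**
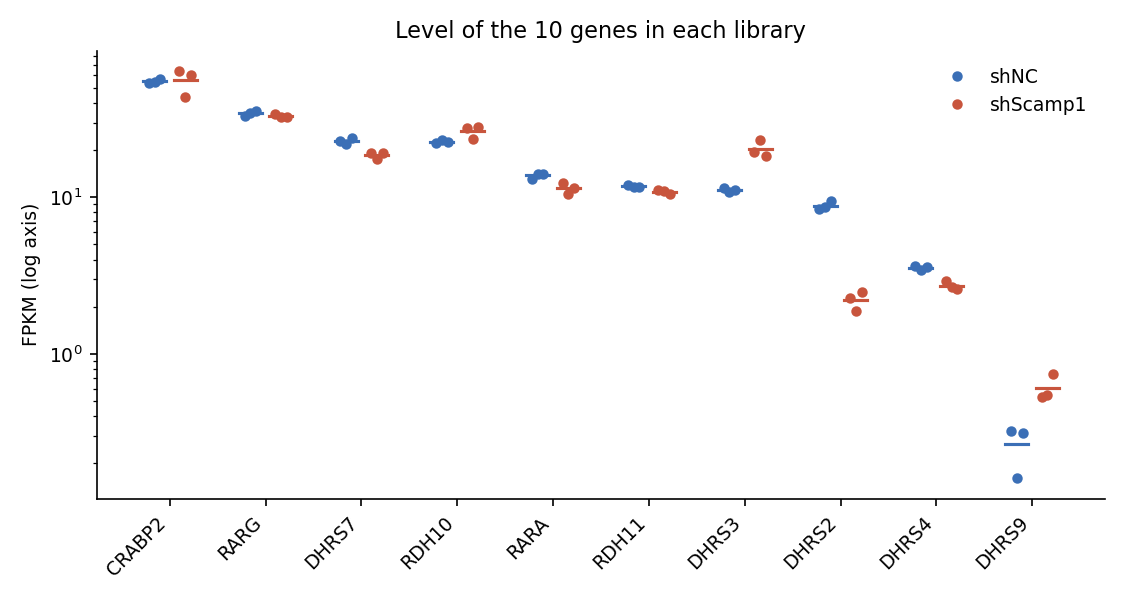
FPKM (log axis) of the 10 genes in each of the 6 libraries, with points for libraries and short lines for group means, ordered by the shNC mean. The shScamp1 points of DHRS2 (1.89 to 2.48) lie far below those of shNC (8.37 to 9.47), and those of DHRS3 (18.3 to 23.2) above (10.8 to 11.4).

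Ordered by length-scaled level in shNC, CRABP2 was followed by RARG, DHRS7, RDH10, RARA, RDH11, DHRS3, DHRS2, DHRS4 and DHRS9. Only DHRS7 and RDH10 overlapped as neighbours in this order. In shScamp1 the order was CRABP2, RARG, RDH10, DHRS3, DHRS7, RARA, RDH11, DHRS4, DHRS2 and DHRS9, and the neighbouring pairs DHRS3 with DHRS7 and RARA with RDH11 overlapped. DHRS3 thus moved from place 7 to 4, and DHRS2 from place 8 to 9, below DHRS4. The lengths behind these levels are the deposited ones. For DHRS2 that length is 7556 bases while its longest coding transcript has 1705. The longest coding transcript of each gene was also used as its length, a setting chosen after seeing the data. DHRS2 would then stand at 39.2 ± 2.5 FPKM in shNC and 9.79 ± 1.33 in shScamp1 (SD, n = 3 each) and move from place 3 to 8. By mean DHRS3 would move from place 8 to 3, level in shScamp1 with RDH10 (35.75 ± 4.56 against 35.72 ± 3.34). In shNC the mean of RARG would be above that of CRABP2, within the SD (59.6 ± 2.35 against 58.7 ± 1.62). The fold change of a single gene is the same under either length, but the order of genes and any sum or ratio over genes are not.

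**Figure D2:**
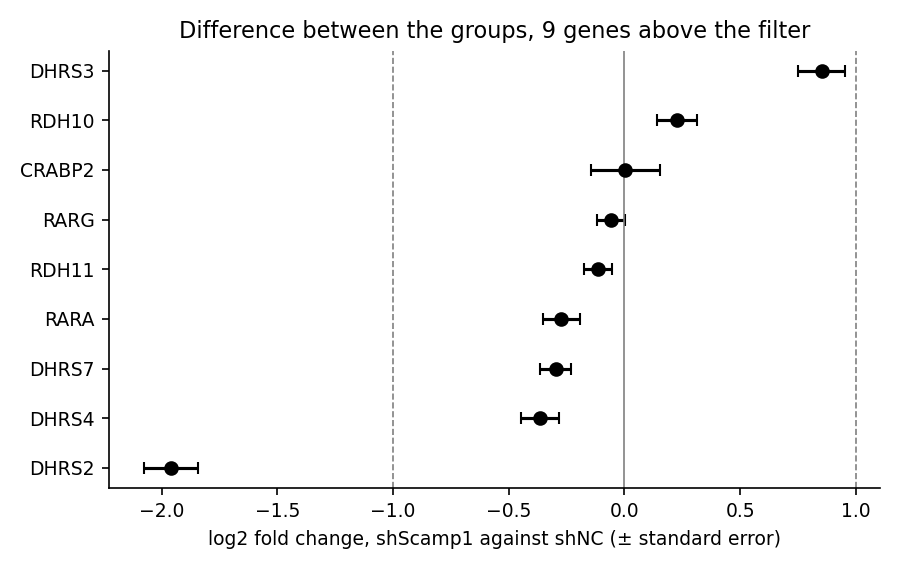
Log2 fold change of shScamp1 against shNC for the 9 genes above the expression filter, with bars for ± 1 standard error and dashed lines at the fold threshold of 1 in each direction. DHRS2 at -1.96 is the only point past a dashed line, and DHRS3 at 0.85 is the highest.

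Counted by the thresholds used over all 15556 genes tested, 1 of the 9 members tested (DHRS2) was called lower, meaning a more than 2-fold difference with a limma adjusted p below 0.05, where 0.746% of all genes were. None was called higher, where 2.42% of all genes were. By adjusted p alone 3 members were lower (DHRS2, DHRS4 and DHRS7; 5.17% of all genes) and 1 was higher (DHRS3; 8.82%). Groups without overlap were seen for 5 members with lower values (DHRS2, DHRS4, DHRS7, RDH11 and RARA; 21.0% of all genes) and for 2 with higher values (DHRS3 and RDH10; 20.4%). Since this contrast served to choose the genes, nothing is read from these counts.

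By the deposited lengths, the 7 dehydrogenases together summed to 80.7, 79.8 and 82.4 FPKM in shNC and to 83.2, 80.5 and 81.7 in shScamp1. The sums overlapped, with means of 81.0 ± 1.34 and 81.8 ± 1.32 (SD, n = 3 each). This rests on the length used: with the longest coding transcripts the sums were 152.3 ± 3.36 and 135.6 ± 1.75 FPKM (SD, n = 3 each) and did not overlap, shScamp1 being lower. DHRS2 made up 10.4%, 10.9% and 11.5% of the sum in shNC and 2.72%, 2.34% and 3.03% in shScamp1, and by longest coding transcript a mean of 25.7% and 7.22%. DHRS3 made up 13.8% ± 0.354 in shNC and 24.8% ± 3.49 in shScamp1 (SD, n = 3 each), and by longest coding transcript 12.9% and 26.4%. The ratio of DHRS3 to DHRS2 was 1.26 ± 0.0954 in shNC and 9.41 ± 2.58 in shScamp1 (SD, n = 3 each), with no overlap between 1.18 to 1.37 in shNC and 7.38 to 12.3 in shScamp1. By longest coding transcript it was 0.502 and 3.74, so that DHRS3 was below DHRS2 in shNC. Under both lengths DHRS2 took a smaller and DHRS3 a larger share in shScamp1.

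**Figure D3:**
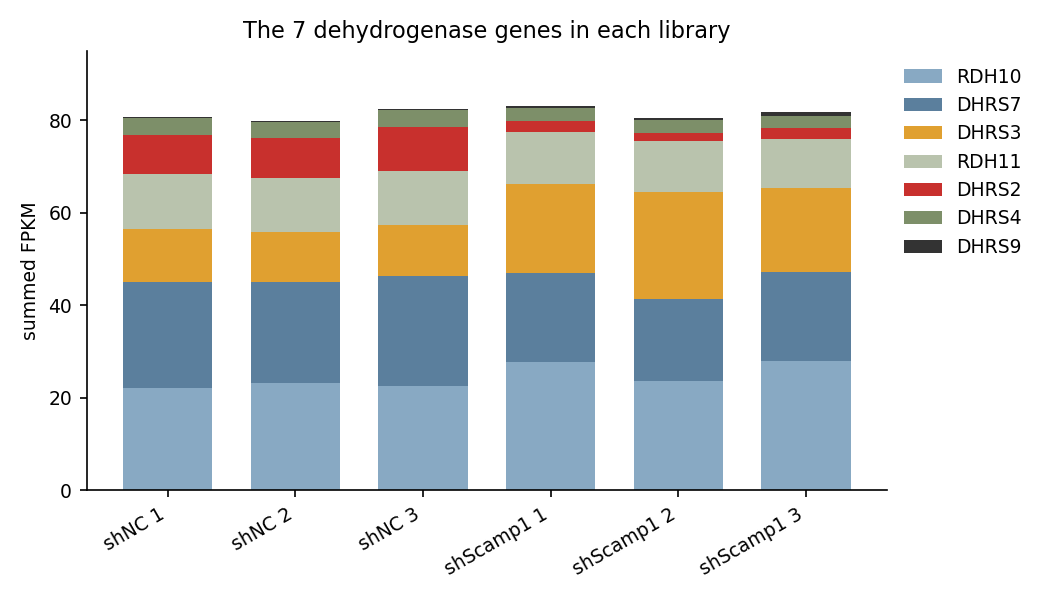
Stacked FPKM, by the deposited gene lengths, of the 7 dehydrogenase genes in each library (bars start at 0). With these lengths the totals lie between 79.8 and 83.2, which does not hold with the longest coding transcripts (152.3 against 135.6 on average), and the DHRS2 segment is smaller and the DHRS3 segment larger in the shScamp1 libraries.

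Other genes of the retinoid pathway and of the short-chain family were taken from 5 lists written by function, 124 genes in all without the members. Of the 88 tested, 9 rose and 3 fell by adjusted p, and 76 did not pass, so that 13.64% passed beside 13.99% of all genes tested. With the fold threshold added 4 were called higher and none lower (4.55% beside 3.16% of all genes), and none was called lower with voom on the recovered reads either. At an unadjusted p under 0.05, limma placed 19 higher and 12 lower, 35.2% of the list genes beside 30.7% of all genes. The median log2 difference was 0.02, beside -0.02 over all genes tested. By direction, 8.82% of all genes tested were higher and 5.17% lower by limma's adjusted p, which stands beside the counts of each list below. The share of all genes passing voom's adjusted p is not given here.

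Among enzymes that turn retinal into retinoic acid, the 3 ALDH1A genes rose. Of the list of retinol and retinal oxidation and retinoic acid breakdown outside the short-chain family, 9 of 19 were tested, 4 rose, none fell and 5 did not pass (5 higher and none lower at an unadjusted p under 0.05, and the same counts by adjusted p with voom). The median log2 difference was 0.57, the value of AKR1B1 (limma adjusted p = 0.0763). The list also holds the aldo-keto reductases AKR1B1, AKR1B10 and AKR1C3, so its counts and median are not of oxidation and breakdown alone. The 4 that rose were ALDH1A1, ALDH1A2, ALDH1A3 and the reductase AKR1C3. ALDH8A1, a further retinaldehyde dehydrogenase of the list, was below the filter with 4 to 7 reads a library. ALDH1A1, by far the most abundant, stood at 108.5, 111.3 and 111.0 FPKM in shNC and 242.1, 183.6 and 241.9 in shScamp1, without overlap (log2 1.00, SE 0.12, limma adjusted p = 0.00438). Its fold sat on the threshold and ranged from 0.93 to 1.13 over the alternatives, the highest being that without shScamp1 replicate 2. ALDH1A3 was at 3.54, 3.35 and 3.53 FPKM in shNC and at 10.7, 7.29 and 9.37 in shScamp1 (log2 1.35, SE 0.14, limma adjusted p = 0.00263). ALDH1A2 went from 2.93 ± 0.196 to 4.62 ± 0.221 FPKM (SD, n = 3 each; log2 0.64, SE 0.09, limma adjusted p = 0.00618). AKR1C3, an aldo-keto reductase of retinal, steroids and prostaglandins, went from 0.873 ± 0.130 to 2.85 ± 0.296 FPKM (log2 1.60, SE 0.15, limma adjusted p = 0.00174), on 52 to 211 reads that near-identical AKR1C genes may share. Of the enzymes that degrade retinoic acid, CYP26A1 had 3 to 8 reads per library and CYP26B1 did not pass (log2 0.29, limma adjusted p = 0.225).

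Among 34 tested of 46 other short-chain dehydrogenases, 1 rose, 2 fell and 31 did not pass, with a median log2 difference of -0.20. At an unadjusted p under 0.05, 1 was higher and 7 were lower, and by adjusted p with voom 1 and 2. WWOX, an oxidoreductase with WW domains known as a tumor suppressor, fell from 4.16 ± 0.0831 to 2.66 ± 0.215 FPKM (SD, n = 3 each; log2 -0.63, SE 0.09, limma adjusted p = 0.00704). BDH1, the mitochondrial enzyme of ketone bodies, fell from 5.15 ± 0.022 to 3.99 ± 0.0386 (log2 -0.36, limma adjusted p = 0.0155), and HSDL1 rose from 5.43 ± 0.369 to 7.34 ± 0.164 (log2 0.43, limma adjusted p = 0.0150). Both passed adjusted p without reaching the fold threshold, and neither passed it in some alternatives, with limma adjusted p up to 0.0844 for BDH1 and 0.0771 for HSDL1. None of these 3 is known mainly as an enzyme of retinol. The most abundant of the list, HSD17B10, a mitochondrial dehydrogenase, was at 103.3 ± 2.58 and 80.7 ± 22.1 FPKM (SD, n = 3 each; log2 -0.40, limma adjusted p = 0.250). Its value in shScamp1 replicate 2 was 55.4 FPKM, and without that library the log2 difference was -0.15 (adjusted p 0.0509 to 0.441 over the alternatives).

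No gene of retinoid uptake, storage and binding passed limma's adjusted p, of 10 tested among 19. At an unadjusted p under 0.05, 4 were lower and none higher, and by adjusted p with voom 2 were lower. The median log2 difference of the list was -0.21. Its most abundant gene, FABP5, which carries fatty acids and retinoic acid, was at 73.7, 63.4 and 76.9 FPKM in shNC and at 53.1, 30.4 and 45.1 in shScamp1. The groups did not overlap, and the lowest value was again that of shScamp1 replicate 2 (log2 -0.77, SE 0.21, limma adjusted p = 0.0593, and -0.54 without that library; adjusted p 0.0157 to 0.185 over the alternatives).

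Among 21 tested of 22 receptor partners and cofactors, 2 rose, 1 fell and 18 did not pass, with a median of 0.17. At an unadjusted p under 0.05, 7 were higher and 1 was lower, and by adjusted p with voom 3 and 1. RARB, the receptor gene that retinoic acid itself induces, rose from 4.11 ± 0.208 (SD, n = 3) to 6.88 ± 0.710 FPKM (log2 0.73, SE 0.10, limma adjusted p = 0.00633). The other receptors that rose or fell were VDR, the vitamin D receptor, at 10.9 ± 0.387 and 13.3 ± 0.562 (log2 0.29, limma adjusted p = 0.0363, up to 0.159 over the alternatives), and THRA, a thyroid hormone receptor, at 14.9 ± 0.819 and 8.07 ± 0.378 (log2 -0.88, SE 0.07, limma adjusted p = 0.00121). Neither RXR gene with sizeable expression passed. RXRA was at 14.7 ± 0.624 and 16.4 ± 2.04 FPKM (log2 0.16, limma adjusted p = 0.337), RXRB at 7.66 ± 0.657 and 7.44 ± 1.55 (log2 -0.06, limma adjusted p = 0.837), and RXRG had 0 to 1 reads. The most abundant gene of this list, the Mediator subunit MED1, was at 128.6 ± 2.08 and 144.1 ± 37.3 FPKM (SD, n = 3 each; log2 0.13, limma adjusted p = 0.639). Without shScamp1 replicate 2 the log2 difference turned to -0.07 for MED1 and to 0.11 for RXRB, and was 0.06 for RXRA.

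Of 20 tested among 25 genes known to be induced by retinoic acid, 3 rose, none fell and 17 did not pass (7 higher and none lower at an unadjusted p under 0.05, and 4 and none by adjusted p with voom). The median was 0.31. Of all genes tested, 13.99% passed limma's adjusted p in either direction and 30.7% had an unadjusted p under 0.05. IGFBP3, an insulin-like growth factor binding protein, was at 1.46, 1.30 and 1.33 FPKM in shNC and at 8.42, 6.70 and 7.90 in shScamp1 (log2 2.40, SE 0.11, limma adjusted p = 0.000202). TGM2, tissue transglutaminase, went from 2.39 ± 0.218 to 4.52 ± 0.212 (SD, n = 3 each; log2 0.89, SE 0.09, limma adjusted p = 0.00261), and RARB stood on this list too. IGFBP6, the most abundant, was at 239.8 ± 9.94 and 268.5 ± 48.1 FPKM (SD, n = 3 each; log2 0.15, limma adjusted p = 0.522). Without shScamp1 replicate 2 the log2 difference of IGFBP6 was 0.30 (limma adjusted p = 0.0118).

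**Figure D4:**
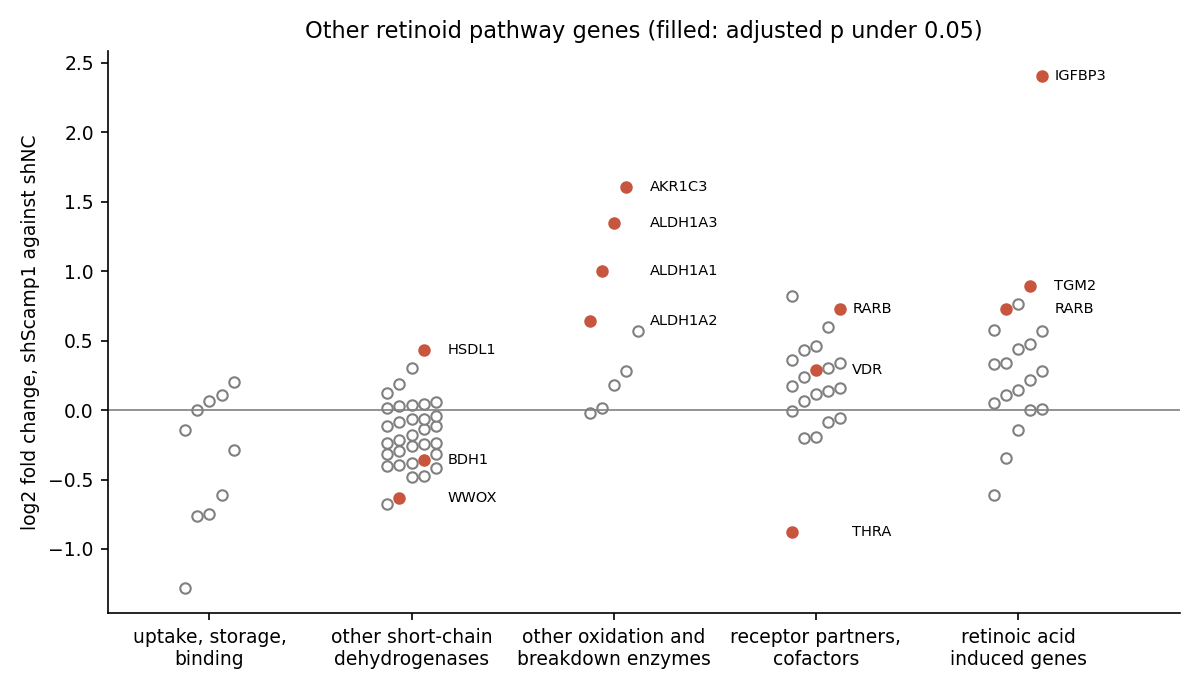
Log2 fold change of shScamp1 against shNC for the tested genes of the 5 lists, 1 point per gene, filled where limma's adjusted p was under 0.05. The group labelled other oxidation and breakdown enzymes also holds aldo-keto reductases. Its filled points (ALDH1A1, ALDH1A2, ALDH1A3 and the reductase AKR1C3) and those of the induced genes (IGFBP3, TGM2 and RARB) lie above 0, and THRA, WWOX and BDH1 below.

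Of 3 tested genes whose lowest coordinate lies within 250 kb of that of DHRS2, AP1G2 (log2 -0.19, limma adjusted p = 0.198), NGDN (log2 -0.16, adjusted p = 0.538) and THTPA (log2 -0.38, adjusted p = 0.203), none passed limma's adjusted p, an unadjusted p under 0.05 or voom. The groups did not overlap for THTPA (0.952 ± 0.0488 FPKM in shNC and 0.709 ± 0.0624 in shScamp1) and AP1G2 (3.31 ± 0.0243 and 2.89 ± 0.241; SD, n = 3 each), both lower in shScamp1, and overlapped for NGDN, whose log2 difference was 0.01 without shScamp1 replicate 2. Within 250 kb of DHRS3, AC254633.1 was called higher (log2 1.62, limma adjusted p = 0.0377) on 3 to 21 reads. Within 250 kb of RARA, GJD3 was called lower (log2 -1.09, limma adjusted p = 0.0225) on 8 to 31 reads.

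The gene whose pattern over the 6 libraries was nearest to DHRS2, by Euclidean distance of centred log2(FPKM + 0.1) among 7047 genes averaging 5 FPKM or more, was WNT11, a Wnt ligand, at a distance of 0.16. WNT11 was measured at 133.2, 128.7 and 134.6 FPKM in shNC and at 35.1, 27.5 and 35.4 in shScamp1, and shared with DHRS2 the lowest value in shScamp1 replicate 2. The next 4 were SP5 (distance 0.65), a Wnt-induced transcription factor, NKD2 (0.69), an inhibitor of Wnt signalling, PPP1R1B (0.70), a phosphatase inhibitor, and CLRN3 (0.71), a membrane protein. Their shNC means of 16.9, 7.77, 16.6 and 8.46 FPKM stood against 6.04, 2.78, 6.11 and 2.84 in shScamp1. These genes were picked for their likeness, which is a description over 6 libraries that fall into 2 groups.

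**Figure D5:**
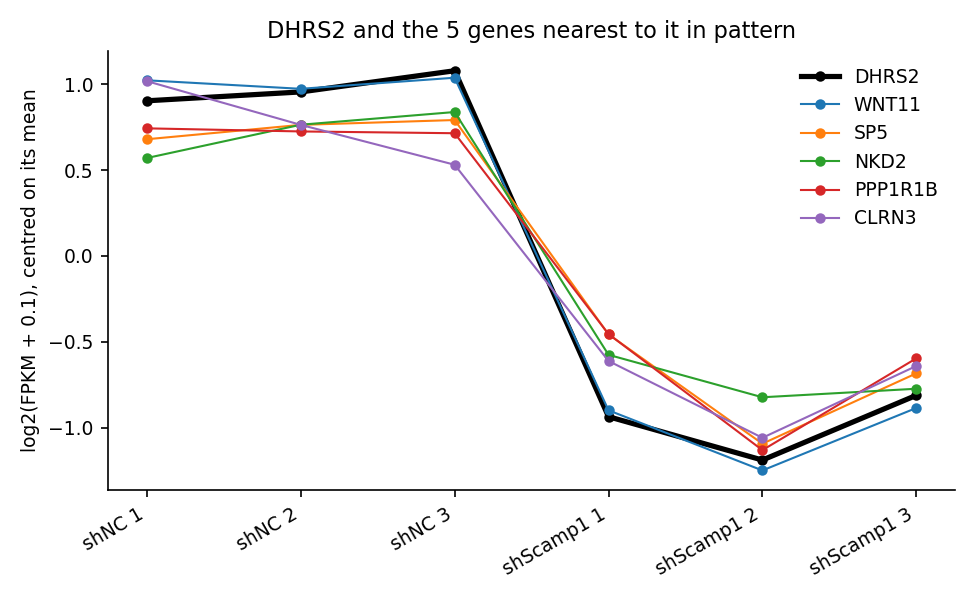
Centred log2(FPKM + 0.1) of DHRS2 and the 5 genes nearest to it in each of the 6 libraries, 1 line per gene. WNT11 runs almost on the DHRS2 line, and the other 4 show a smaller step between the groups.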

How the data were processed

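RNA-seq of 6 libraries was analysed from the deposited gene table in FPKM. Per the submitters' processing notes, the authors aligned reads with HISAT2 2.0.5 to hg38, counted them with featureCounts 1.5.0-p3 and used DESeq2 1.20.0. The strand setting is not given in the sources used here. Gene coordinates equalled GENCODE 29 for all 58735 genes. Every deposited FPKM value was a whole number of reads (tolerance 0.02), which gave reads per gene. The 15556 genes averaging 0.5 FPKM or more were fitted as log2(FPKM + 0.1) with limma 3.58.1 in R 4.3.3 (empirical Bayes with trend, shScamp1 against shNC, Benjamini-Hochberg over all genes tested), and fold changes on this scale understate those of low genes. Genes were called at an adjusted p below 0.05 together with a log2 difference larger than 1 in either direction. Tested on simulated data for this comparison (15556 genes), the fit recovered 189 of 194 tested genes changed by a log2 size of 2, with 13 false calls. The simulated reads had the same dispersion for every gene and no library standing apart, so these figures need not hold for the real libraries. The members and lists were chosen with earlier results of these data known. Named were the members, SCAMP1, per list up to 4 genes past the adjusted p by fold and the most abundant gene, RXRA, RXRB and ALDH1A1 to ALDH1A3, tested genes within 250 kb of DHRS2 and the 5 nearest in pattern. Genes called within 250 kb of another member were named too. Alternatives covered the pseudocount, filter, scaling, voom on recovered reads, trend, replicate block, protein-coding genes alone, each library left out and, added after seeing the data, the longest coding transcript as gene length. Python 3.11.15 drew the figures.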

Additional observations from a re-analysis of the deposited data

How the results depend on the processing

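DHRS2 was the only member called in each of 15 alternatives. Its log2 difference lay between -2.04 and -1.62 over them, and between -2.04 and -1.85 when 1 library was left out. With a pseudocount of 1 it was -1.62, and the genes called over the table fell to 248 from 492, since a larger pseudocount shrinks the folds of low genes. Leaving out 1 library gave 364 to 540 genes called, and the fewest called lower were 53, 55 and 58 without shNC replicate 1, 2 and 3, against 116. Other pathway genes called numbered 3 to 5 over all alternatives. Of 120 values of the other 8 members fitted, 115 moved by less than the spread between replicates. The 5 others were DHRS4 with a pseudocount of 1 (-0.29) and, scaled to total reads, DHRS4 (-0.44), DHRS7 (-0.37), RDH11 (-0.19) and RARG (-0.13). The deposited values follow another scaling, which is not stated. Total-read scaling moved the median of all genes from -0.02 to -0.10. Same-numbered libraries showed little shared deviation from their group means, with correlations of -0.035, 0.032 and 0.067, and not every library correlated best with its own number. Whether same-numbered libraries were handled together cannot be told from this. With the longest coding transcript as gene length, added after seeing the data, 9 of 10 sums, shares and ratios over members moved by more than the spread. A replicate block gave 389 genes called, 1 member (DHRS2, -1.96) and 4 pathway genes. Depth limits DHRS9 (10 to 41 reads) and DHRS4 (84 to 132).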
